A study of Homo sapiens with 10 samples.

Results

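This account covers 29 genes of S phase and DNA replication in cells labelled BEAS-2B. Each was matched by its gene symbol to a row of the long RNA count tables, and all 29 were found among 55771 symbols. BEAS-2B is a human bronchial epithelial line immortalised with a viral oncogene, large T antigen, which binds the RB protein. The libraries labelled TAF1C came from stable cells given a TAF1C vector with a pCMV6 promoter (3 libraries, 1 to 3), and the others from stable cells given the empty vector (2 libraries, labelled eV 1 and 2). All of these cells were grown in serum-supplemented LHC9 medium under G418 selection, and their ribosomal RNA was depleted before sequencing. The labels do not say whether a line was a single clone or whether libraries of a group were separate cultures, so the p-values measure the spread between these libraries, which may be technical.

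Replication is licensed in G1, when the origin recognition complex and the loaders CDC6 and CDT1 place MCM2 to MCM7, the helicase ring, on DNA. Cyclin E and its kinase, with the E2F factors released from RB, carry cells into S phase. CDC45 and the GINS complex then activate the helicase, polymerases copy the strands, ribonucleotide reductase supplies the building blocks, and chromatin assembly factors repack the copies. Most of these genes are classical E2F targets whose mRNA rises in late G1 and early S phase, so that their levels are widely read as a measure of cycling. TAF1C belongs to SL1, which recruits RNA polymerase I to ribosomal DNA, and links between ribosome production and cell cycle entry are known from many cell types.

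The libraries labelled TAF1C held 34212883 to 37533366 gene counts and the empty vector libraries 22809601 and 28476151. Levels are given as CPM, which are counts over the TMM-adjusted library size, and changes as log2 fold changes of TAF1C over empty vector with an edgeR p adjusted over all 18402 genes tested. The TAF1C transcript was at 64.0, 59.0 and 67.0 CPM in the libraries labelled TAF1C, against 64.4 and 77.7 CPM in those with the empty vector, without passing the test (log2 fold change -0.17 ± 0.13 (SE), edgeR adjusted p = 0.353; exact two-sided permutation p = 0.4, where the smallest possible is 0.2). A higher TAF1C level was not seen in these counts, so the libraries are called by their labels. Of 10 epithelial markers 8 were tested and 4 rose (50%, beside 15.9% of all genes tested). The raised KRT7, KRT8, KRT18 and LAMB3 were at 39.3 to 1060 CPM in the libraries labelled TAF1C, against 4.30 to 247 CPM in the empty vector libraries. ITGB4 fell, at 8.79 to 9.37 CPM, against 23.1 and 17.4 CPM (22.6% of all genes tested fell). EPCAM was at 0.057 to 0.433 CPM, against 14.7 and 1.10 CPM. It met the filter on low counts only through the empty vector libraries, so its call is not counted. KRT19, CDH1, KRT5 and TP63 were under 5 CPM in every library. The summed level of 15 photoreceptor markers was 9.38 to 13.9 CPM in the libraries labelled TAF1C, against 1821 and 1370 CPM in the empty vector libraries; GNGT1 was at 0 in libraries TAF1C 1 and 3. Of 10 neuronal markers, MAP2 was at 93.2 to 102 CPM, against 119 and 44.3 CPM, and the other 9 summed to 7.22 to 7.89 CPM, against 306.0 and 231.0 CPM; STMN2 was at 0 in empty vector 2. Calls are not counted for these 2 lists, since several markers met the filter on low counts only through the empty vector libraries. MYCN, a MYC family transcription factor, was at 0.206 to 0.314 CPM in the libraries labelled TAF1C, against 50.8 and 721 CPM in the empty vector libraries. The part of these transcripts in the results below was not tested, and in bulk RNA fewer cells of a type and less RNA per cell cannot be told apart. Whether the empty vector libraries are from the same line as those labelled TAF1C was not tested. The changes below are therefore differences between libraries grouped by their labels.

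Few of the 29 genes passed the test. CDC45, RRM1, EXO1 and ORC1 rose, by 1.42-fold to 1.70-fold, and CCNE1 fell to 0.550 of its empty vector level. The other 24 did not pass. Of all genes tested, 15.9% rose and 22.6% fell, against 4 and 1 of the 29 (13.8% and 3.45%). With TMM scaling the raised share was thus near that of all genes, and the lowered share was below it. With library totals 11 of the 29 fell (37.9%, beside 27.3% of all genes), and with quantile normalization 7 (24.1%, beside 15.8%), a higher share. The difference in share was not tested. The median log2 fold change of the 29 genes was 0.11, beside -0.10 over all genes tested, and 12 of the 29 (41.4%) had an unadjusted p under 0.05, as had 49.5% of all genes. All 29 passed the filter on low counts, and the lowest value in any library was 14.1 CPM. With each library left out in turn, 1 to 17 of the genes rose and 0 to 14 fell. The highest counts came from leaving out an empty vector library and the lowest from leaving out a library labelled TAF1C. With only empty vector 1 as control, 17 rose and 6 fell (35.8% and 34.0% of all genes), and with only empty vector 2, 6 rose and 14 fell (29% and 29.5% of all genes). These fits take their spread from the libraries labelled TAF1C alone. Without 1 of the libraries labelled TAF1C, CDC45 alone was called, beside 5.84%, 6.48% and 5.94% of all genes raised and 11.3%, 10.7% and 11.1% lowered. DESeq2 called 6 raised and 1 lowered, beside 20% and 23.9% of all genes, and RLE size factors 4 and 0, beside 16.0% and 20.9%. Looser filters gave 1 and 0 with no filter, beside 3.61% and 8.55% of all genes, and 2 and 0 with filterByExpr, beside 7.18% and 13.9%. With the replicate number as a block, on 4 libraries, 0 rose and 0 fell, beside 6.81% and 13.9% of all genes.

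**Figure D1:**
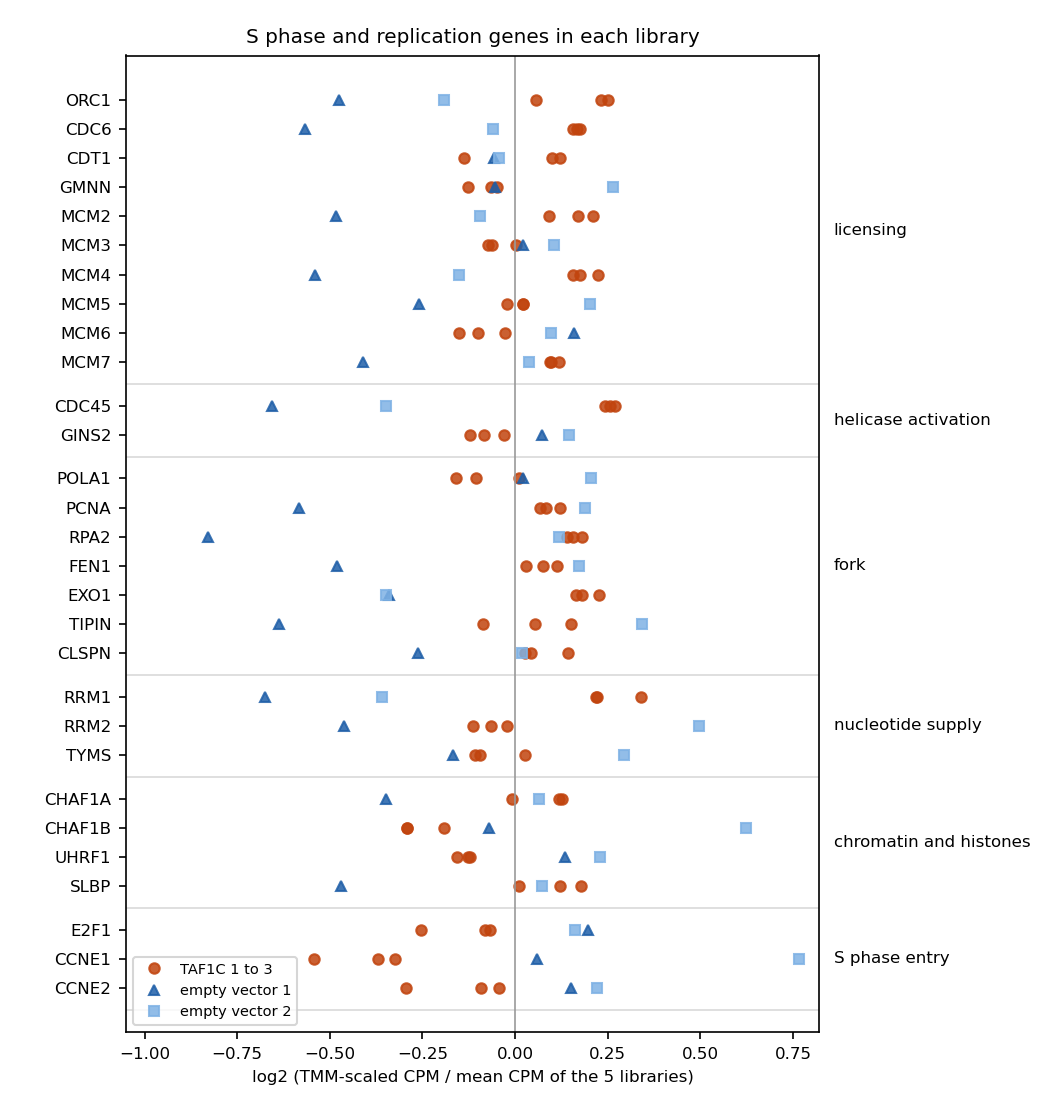
Level of each of the 29 genes in each library, as the log2 of its TMM-scaled CPM over its mean in the 5 libraries, by role; circles are the 3 libraries labelled TAF1C, the triangle empty vector 1 and the square empty vector 2. The circles of a gene lie close together while the triangle and the square are often far apart, with the triangle left of the square for 26 genes.

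The RefSeq promoter windows (GRCh38.p14, 250 bases before to 50 after the annotated start) are shown for the 3 called genes with the smallest adjusted p and for the printable genes with the highest CPM, RRM1 again and MCM7, which did not pass. Capitals mark the E2F sites searched (TTTCCCGC, TTTCGCGC, TTTGGCGC and TTTGCCGC) and the CCAAT box (CCAAT), each on either strand. The windows are chr22:19479670-19479969 on the plus strand for CDC45, chr11:4094435-4094734 on the plus strand for RRM1, chr1:241847954-241848253 on the plus strand for EXO1 and chr7:100101348-100101647 on the minus strand for MCM7, each written 5′ to 3′ on the strand of the gene.
CDC45: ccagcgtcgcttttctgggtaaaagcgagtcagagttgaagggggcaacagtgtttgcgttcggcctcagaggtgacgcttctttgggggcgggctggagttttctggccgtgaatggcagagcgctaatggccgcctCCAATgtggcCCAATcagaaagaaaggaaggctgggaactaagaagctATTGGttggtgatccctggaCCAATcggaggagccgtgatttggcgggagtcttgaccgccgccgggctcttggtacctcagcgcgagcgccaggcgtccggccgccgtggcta
RRM1: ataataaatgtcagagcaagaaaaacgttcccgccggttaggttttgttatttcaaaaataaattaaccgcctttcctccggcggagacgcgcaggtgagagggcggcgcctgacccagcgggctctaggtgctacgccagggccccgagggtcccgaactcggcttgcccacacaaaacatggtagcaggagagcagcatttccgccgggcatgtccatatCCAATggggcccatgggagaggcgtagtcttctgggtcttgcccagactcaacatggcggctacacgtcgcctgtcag
EXO1: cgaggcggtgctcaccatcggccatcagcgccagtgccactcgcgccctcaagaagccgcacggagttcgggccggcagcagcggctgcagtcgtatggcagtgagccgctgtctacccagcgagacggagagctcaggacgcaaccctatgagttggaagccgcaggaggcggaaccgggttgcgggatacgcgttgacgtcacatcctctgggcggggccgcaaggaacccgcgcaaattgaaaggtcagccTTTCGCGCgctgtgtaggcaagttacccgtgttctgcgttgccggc
MCM7: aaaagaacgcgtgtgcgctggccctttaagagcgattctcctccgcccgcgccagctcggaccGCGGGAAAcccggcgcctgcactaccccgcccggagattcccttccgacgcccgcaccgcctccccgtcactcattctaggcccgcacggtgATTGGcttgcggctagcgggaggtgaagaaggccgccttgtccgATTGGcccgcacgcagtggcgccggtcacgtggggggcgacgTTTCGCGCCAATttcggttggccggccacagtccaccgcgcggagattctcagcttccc

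CDC45 carries 4 CCAAT boxes and no match to the E2F letters, RRM1 has 1 CCAAT box, EXO1 has 1 E2F site that begins at base 5, the start being base 1, and MCM7 has 2 E2F sites, the nearer of them beginning 9 bases before the start, where its last letters run into a CCAAT box. Windows were found for 25 of the 29 genes, and the first window listed was used for each. An E2F site was present in 14 of these 25 (56.0%), beside 3.33% of the 27305 genes in the table, a CCAAT box in 16 (64%) beside 35.7%, a GC box (GGGCGG) in 80.0% beside 44.6% and an E-box (CACGTG) in 5 of the 25 beside 7.43% of all. The cell cycle homology region (TTTGAA or TTCGAA) was in 2 of the 25 beside 16.6% of all. In 12 of the 14 genes an E2F site began between 60 bases before and 20 bases after the start. Of the 21 E2F sites, 3 overlap the one before them, in MCM2 and MCM6. A match is a run of letters in the window and was not tested for binding. Of the 4 raised genes EXO1 alone holds the E2F letters searched, and the lowered CCNE1 does not. Other spellings of an E2F site and other windows of a gene were not searched. A gene without these letters may therefore still hold a site.

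Among the licensing genes, ORC1, the largest subunit of the origin recognition complex, was the only one past the test. It was at 51.8, 58.5 and 59.2 CPM in the libraries labelled TAF1C, against 35.8 and 43.6 CPM in the empty vector libraries. The groups did not overlap, and the log2 fold change was 0.51 ± 0.14 (SE) (edgeR adjusted p = 0.0361). ORC1 missed the threshold without any 1 of the libraries labelled TAF1C (edgeR adjusted p = 0.0921 to 0.140) and with library totals in place of TMM (0.0794). CDC6, the ATPase that loads the helicase with ORC, was at 151, 152 and 153 CPM, against 91.4 and 130 CPM (0.46 ± 0.17 (SE), edgeR adjusted p = 0.0788). CDT1, the other loader, had 99.4, 83.0 and 97.9 CPM in the libraries labelled TAF1C and 87.8 and 88.7 CPM in the empty vector libraries, with a log2 fold change of 0.082 ± 0.12 (SE). GMNN encodes geminin, which blocks CDT1 after origins fire, and its groups overlapped (77.0 to 81.3 CPM in the libraries labelled TAF1C, 81.0 and 101 CPM in the empty vector libraries). With library totals the GMNN groups lay apart and it fell (adjusted p = 0.0131), as with quantile normalization (0.0329).

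None of the 6 helicase subunit genes passed the edgeR test, 2 had an unadjusted p under 0.05 (33.3%, beside 49.5% of all genes) and 2 passed with DESeq2 (MCM2 and MCM4). With library totals MCM4 rose, and MCM3 and MCM6 fell with both library totals and quantile normalization. MCM4 came closest, at 742, 767 and 732 CPM in the libraries labelled TAF1C, against 452 and 591 CPM in the empty vector libraries (log2 fold change 0.52 ± 0.17 (SE), edgeR adjusted p = 0.0583). The adjusted p was 0.0127 with DESeq2, 0.0431 with library totals and 0.795 with quantile normalization, where the log2 fold change was 0.028. MCM2 had 419, 386 and 407 CPM, against 259 and 339 CPM (0.44 ± 0.16 (SE), edgeR adjusted p = 0.0804), and MCM7 had 561, 560 and 570 CPM, against 395 and 539 CPM (0.27 ± 0.17 (SE)). These 3 were higher in every library labelled TAF1C than in either empty vector library, although for MCM7 that order was lost with library totals. Over all genes tested, 29.8% were higher in this way. MCM3 and MCM6 lay the other way, MCM3 at 388, 406 and 385 CPM, against 411 and 436 CPM (-0.11 ± 0.12 (SE), edgeR adjusted p = 0.511). MCM6 was at 113, 123 and 117 CPM, against 140 and 134 CPM (-0.22 ± 0.10 (SE), edgeR adjusted p = 0.139). MCM5 was at 204 to 210 CPM in the libraries labelled TAF1C, between the 173 and 238 CPM of the empty vector libraries.

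In the make-up of the helicase counts, a measure that no scaling factor enters, the groups lay apart for every gene but MCM7. In CPM, a different measure, the groups lay apart upward in 29.8% and downward in 34.4% of all genes tested. MCM4 held 30.5%, 31.4% and 30.2% of the MCM2 to MCM7 counts in the libraries labelled TAF1C, against 24.7% and 25.9% in the empty vector libraries. MCM3 held 15.9%, 16.6% and 15.9%, against 22.5% and 19.2%. The share of MCM2 was also higher in each library labelled TAF1C (15.8% to 17.2%, against 14.1% and 14.9%), while the MCM7 shares overlapped. The shares of MCM5 (8.35% to 8.68%, against 9.43% and 10.5%) and MCM6 (4.63% to 5.04%, against 7.65% and 5.9%) were lower. For MCM3, MCM5 and MCM6 the empty vector libraries differed by more than the nearest libraries across the groups. The 95% Wilson intervals, which cover counting error only, reached at most 0.381 percentage points to either side. A share falls when another rises, so these 6 values are not independent, and no test was made of them.

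Helicase activation gave the smallest adjusted p of the 29 genes. CDC45, the subunit that joins the MCM ring when origins fire, was at 110, 108 and 109 CPM in the libraries labelled TAF1C, against 58.0 and 71.7 CPM in the empty vector libraries. It averaged 109 ± 0.781 CPM (SD, n = 3), against 64.8 ± 9.70 CPM (SD, n = 2), 1.68-fold higher, with a log2 fold change of 0.75 ± 0.13 (SE) and an edgeR adjusted p = 0.00805. CDC45 was called in each fit that left out 1 library labelled TAF1C (edgeR adjusted p = 0.0462 to 0.0495). It missed the threshold with the replicate number as a block (0.0534). Its log2 fold change was 0.88 against empty vector 1 alone and 0.54 against empty vector 2 alone. GINS2, a subunit of the GINS complex that binds beside it, was lower in every library labelled TAF1C, at 48.5, 51.7 and 49.8 CPM, against 55.5 and 58.4 CPM, but did not pass (-0.19 ± 0.10 (SE), edgeR adjusted p = 0.203); with library totals it fell (0.0309). The ratio of CDC45 to GINS2 counts was 2.27, 2.10 and 2.2 in the libraries labelled TAF1C, against 1.04 and 1.23 in the empty vector libraries.

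At the fork, EXO1 rose. This exonuclease resects DNA ends and works in mismatch repair. It was at 85.7, 86.6 and 89.5 CPM in the libraries labelled TAF1C, against 60.4 and 60.1 CPM in those with the empty vector. Of the 29 genes it had the closest pair of empty vector values. The log2 fold change was 0.54 ± 0.099 (SE) (edgeR adjusted p = 0.0102), and it missed the threshold with library totals (adjusted p = 0.0787) and without any 1 of the libraries labelled TAF1C (0.0566 to 0.0726). For PCNA, FEN1 and TIPIN the libraries labelled TAF1C lay between the empty vector libraries. PCNA, the sliding clamp, was at 262, 269 and 259 CPM in the libraries labelled TAF1C, against 165 and 282 CPM, and FEN1, the nuclease that trims Okazaki fragments, was at 154 to 163 CPM, against 108 and 170 CPM. RPA2, a subunit of the protein that coats single strands, was at 84.7 to 87.1 CPM, just above the higher of 43.3 and 83.4 CPM, and TIPIN, a fork protection factor, at 30.3 to 35.7 CPM, against 20.7 and 40.8 CPM. POLA1, the catalytic subunit of the priming polymerase, was lower in each library labelled TAF1C (105 to 118 CPM, against 119 and 135 CPM) and CLSPN, a checkpoint adaptor at the fork, was higher in each (177 to 192 CPM, against 145 and 176 CPM). Neither passed the test (edgeR adjusted p = 0.221 and 0.305), although POLA1 fell with library totals (0.0155) and with quantile normalization (0.0178).

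Among the nucleotide supply genes, which include the 2 subunits of ribonucleotide reductase, RRM1 alone passed the test. RRM1, the large subunit, was at 463, 503 and 464 CPM in the libraries labelled TAF1C, against 249 and 310 CPM in the empty vector libraries. It averaged 476 ± 23.0 CPM (SD, n = 3), against 279 ± 43.5 CPM (SD, n = 2), 1.70-fold higher (log2 fold change 0.77 ± 0.15 (SE), edgeR adjusted p = 0.0132). RRM1 missed the threshold without any 1 of the libraries labelled TAF1C (adjusted p = 0.0660 to 0.0692) and kept its direction in every fit. RRM2, the small subunit and the one whose level limits the enzyme through the cycle, was at 207, 213 and 200 CPM, between the 157 and 305 CPM of the empty vector libraries. Its log2 fold change was 0.37 against empty vector 1 alone and -0.63 against empty vector 2 alone, and -0.16 ± 0.28 (SE) against both (edgeR adjusted p = 0.676). The ratio of RRM1 to RRM2 counts was 2.24, 2.36 and 2.32 in the libraries labelled TAF1C, against 1.59 and 1.02. On the log2 scale the empty vector libraries differed in this ratio by more than the nearest libraries across the groups. A difference between the changes of RRM1 and RRM2 was not tested. TYMS, thymidylate synthase, was at 61.8, 67.8 and 62.4 CPM, against 59.3 and 81.6 CPM, and fell with library totals (edgeR adjusted p = 0.0459). The log2 fold change of TYMS was 0.078 against empty vector 1 alone and -0.42 against empty vector 2 alone.

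None of the 4 genes for chromatin and histones passed with edgeR or DESeq2, and 2 had an unadjusted edgeR p under 0.05, beside 49.5% of all genes. UHRF1, which brings DNA methylation to new strands and whose row is annotated as a processed transcript, was lower in each library labelled TAF1C, at 201, 196 and 200 CPM, against 240 and 256 CPM in the empty vector libraries (log2 fold change -0.32 ± 0.11 (SE), edgeR adjusted p = 0.0623). UHRF1 fell with library totals (adjusted p = 0.00810) and with quantile normalization (0.00666), and so did CHAF1B (0.0115 and 0.0474). CHAF1B, a subunit of the chromatin assembly factor, had 47.4, 44.2 and 44.2 CPM, against 51.5 and 83.3 CPM (-0.57 ± 0.21 (SE), edgeR adjusted p = 0.0786), and its partner CHAF1A had 213, 195 and 214 CPM, against 154 and 205 CPM (0.21 ± 0.16 (SE)). The ratio of CHAF1A to CHAF1B counts was 4.49, 4.42 and 4.85 in the libraries labelled TAF1C, against 2.99 and 2.46. SLBP, which binds the stem-loop of histone mRNAs, was at 113 to 127 CPM, against 81.0 and 118 CPM, with overlapping groups.

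The 3 genes of S phase entry were lower in every library labelled TAF1C than in either empty vector library, and 1 of them passed. Over all genes tested, 34.4% were lower in this way and 22.6% fell past the test. CCNE1, cyclin E1, was at 16.4, 15.9 and 14.1 CPM in the libraries labelled TAF1C, against 21.4 and 34.9 CPM in the empty vector libraries. The log2 fold change was -0.86 ± 0.24 (SE) (edgeR adjusted p = 0.0345), the largest in size of the 29. The empty vector libraries themselves differed by -0.70 on the log2 scale (1 over 2). With RLE size factors the adjusted p was 0.0544, with quantile normalization 0.122, and without any 1 of the libraries labelled TAF1C 0.104 to 0.128. CCNE2, cyclin E2, had 30.9, 36.8 and 35.6 CPM, against 42.1 and 44.2 CPM (-0.32 ± 0.13 (SE), edgeR adjusted p = 0.0980), and fell with library totals (0.0262). E2F1, an activating E2F, had 104, 92.2 and 105 CPM, against 126 and 123 CPM (-0.31 ± 0.11 (SE), edgeR adjusted p = 0.0724). E2F1 passed with library totals (adjusted p = 0.0232) and with quantile normalization (0.0248).

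**Figure D2:**
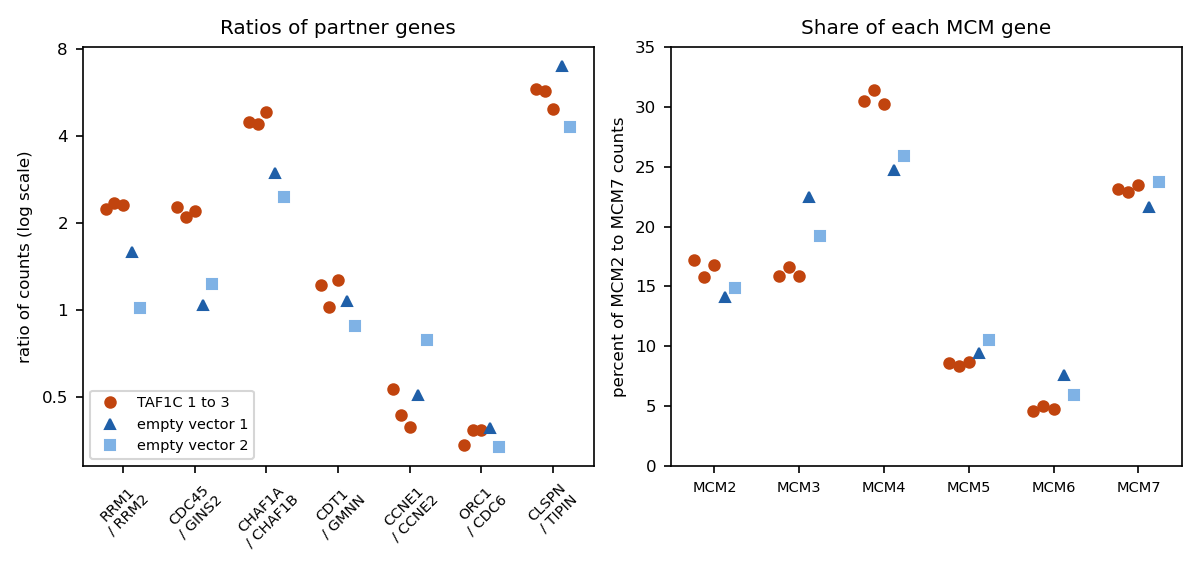
Left, the ratio of counts of partner genes in each library (log scale); right, the share of each MCM gene in the MCM2 to MCM7 counts of each library, in percent; circles are the 3 libraries labelled TAF1C, triangles empty vector 1 and squares empty vector 2. The circles stand above the other symbols for RRM1 over RRM2, CDC45 over GINS2 and CHAF1A over CHAF1B, and for the MCM2 and MCM4 shares. They stand below them for the MCM3, MCM5 and MCM6 shares. For RRM1 over RRM2 the triangle and the square are further apart than the nearest circle is from the nearer of them. The same holds for the MCM3, MCM5 and MCM6 shares.

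Of the 7 partner ratios formed, the 3 given above had groups apart. Among single genes tested, the groups lay apart upward in 29.8% and downward in 34.4% in CPM. Ratios of other gene pairs were not formed. The ratio of CDT1 to GMNN was 1.22, 1.03 and 1.27 in the libraries labelled TAF1C, against 1.08 and 0.880 in the empty vector libraries, and that of CCNE1 to CCNE2 was 0.532, 0.433 and 0.395, against 0.509 and 0.789. ORC1 over CDC6 (0.342 to 0.386, against 0.392 and 0.336) and CLSPN over TIPIN (4.99 to 5.84, against 7.01 and 4.31) also overlapped. The ratios carry no library scaling and are given as values without a test.

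Over the whole set, 10 of the 29 genes were higher in every library labelled TAF1C than in both empty vector libraries, 9 were lower, and 10 overlapped. Among all genes tested, the groups lay apart upward in 29.8% and downward in 34.4%. With library totals the counts were 7 and 12, against 22.8% and 41.4% of all genes. The summed level of the 29 genes was 5358, 5409 and 5328 CPM in the libraries labelled TAF1C, against 4082 and 5279 CPM in the empty vector libraries, a log2 ratio of the group means of 0.20. With library totals that ratio was 0.0036 (5028 ± 18.7 CPM, SD, n = 3, against 5015 ± 284 CPM, SD, n = 2). The median log2 fold change of all genes was -0.33 on that scale and 0.22 with quantile normalization, where 3 and 4 of the 29 rose and 11 and 7 fell (12.3% and 23.4% of all genes rose, 27.3% and 15.8% fell).

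The spread between the empty vector libraries exceeded that between the libraries labelled TAF1C for these genes. The SD of the log2 difference over the 29 genes was 0.0962 to 0.112 for pairs of libraries labelled TAF1C and 0.304 for the empty vector pair, beside 0.383 to 0.416 and 1.08 over all genes tested. Empty vector 1 was below empty vector 2 for 26 of the 29 genes, with a median log2 difference of -0.39, where all genes had a median of 0.019. The widest gaps were in TIPIN (-0.98), RRM2 (-0.96) and RPA2 (-0.95). RB1, the retinoblastoma protein that holds E2F in check, was at 101, 104 and 102 CPM in the libraries labelled TAF1C, against 47.9 CPM in empty vector 1 and 98.5 CPM in empty vector 2, and did not pass (edgeR adjusted p = 0.244). RCVRN, a photoreceptor marker, was at 0.412 to 0.770 CPM in the libraries labelled TAF1C, against 255 CPM in empty vector 1 and 1.07 CPM in empty vector 2. OTX2, another, was at 0.0588 to 0.228 CPM, against 303 and 425 CPM, so that these libraries differed from each other in such transcripts as well.

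**Figure D3:**
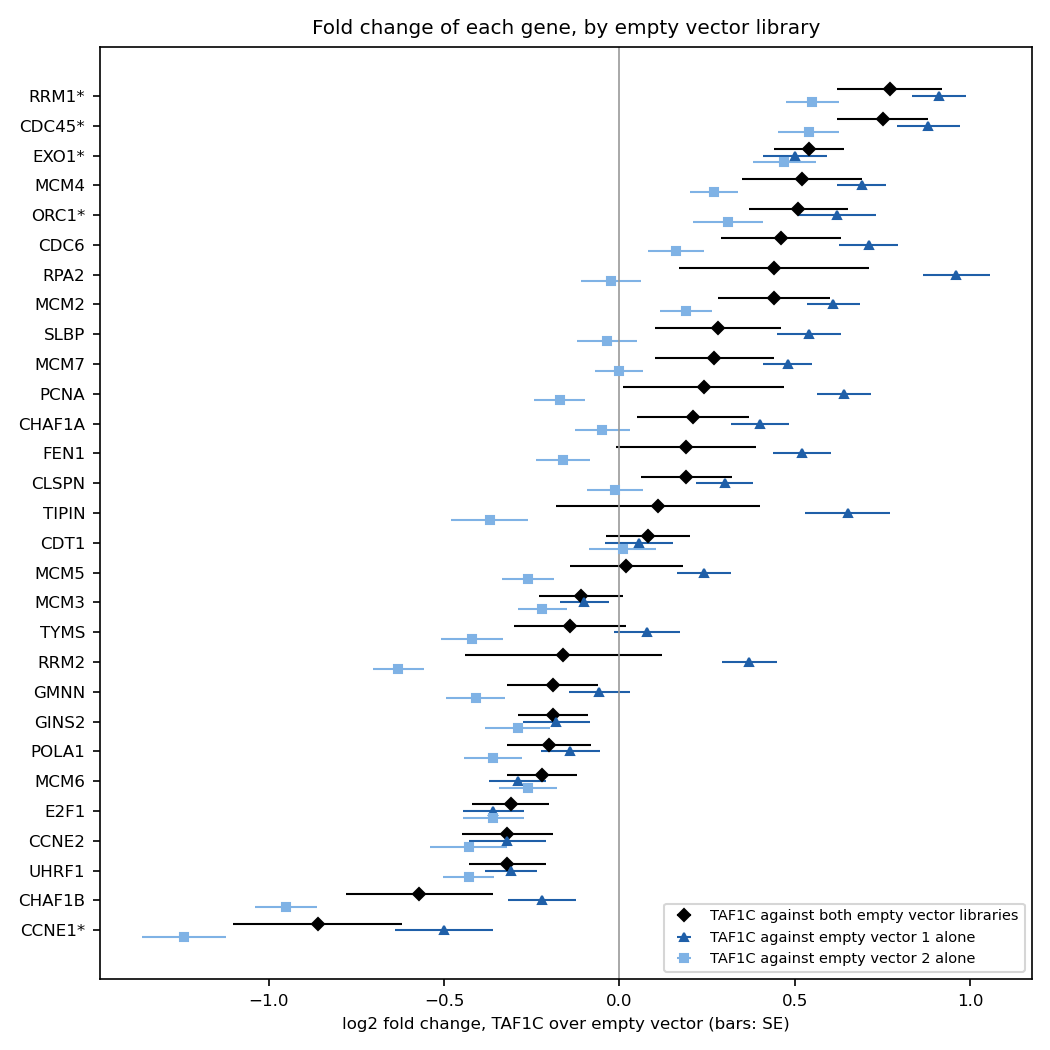
Log2 fold change of each gene with its SE, for the libraries labelled TAF1C against both empty vector libraries (diamonds), against empty vector 1 alone (triangles) and against empty vector 2 alone (squares); an asterisk marks the 5 genes past the test against both. The squares of RRM2 (-0.63), TIPIN (-0.37) and MCM5 (-0.26) lie left of 0 and their triangles (0.37, 0.65 and 0.24) right of it.

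The sign depended on which empty vector library was used for several genes, and TIPIN, RRM2 and MCM5 passed the test in opposite directions. TIPIN had a log2 fold change of 0.65 against empty vector 1 alone (edgeR adjusted p = 3.56e-05) and -0.37 against empty vector 2 alone (0.00491). MCM5 had 0.24 (edgeR adjusted p = 0.00768) and -0.26 (0.00366). PCNA had 0.64 and -0.17, and RPA2 0.96 and -0.025. The 5 called genes had the same sign against each: CDC45 0.88 and 0.54, RRM1 0.91 and 0.55, EXO1 0.50 and 0.47, ORC1 0.62 and 0.31, and CCNE1 -0.50 and -1.24. E2F1 (-0.36 and -0.36), UHRF1 (-0.31 and -0.43) and MCM6 (-0.29 and -0.26) also had close values against each library.

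In a list of 20 E2F, RB family and MuvB regulators 5 rose, 3 fell and 12 did not pass (median log2 fold change -0.031). The shares were 25% raised and 15% lowered, beside 15.9% and 22.6% of all genes. E2F2, an activating E2F, fell to 21.3, 17.3 and 18.2 CPM in the libraries labelled TAF1C, against 54.0 and 45.3 CPM in the empty vector libraries (-1.39 ± 0.15 (SE), edgeR adjusted p = 0.00208). TFDP1, the partner with which E2F factors bind DNA, rose to 328, 314 and 311 CPM, against 139 and 178 CPM (1.0 ± 0.15 (SE), edgeR adjusted p = 0.00547). E2F3, the remaining activator, was at 46.3, 53.0 and 46.3 CPM, against 80.9 and 104 CPM (-0.93 ± 0.15 (SE), edgeR adjusted p = 0.00649). E2F2, TFDP1 and E2F3 passed in the same direction in every alternative fit run, with a highest adjusted p of 0.0223, 0.0379 and 0.0446. The other called members were CDK2, the kinase of cyclins E and A (0.58 ± 0.12 (SE)), CCNA2, cyclin A2 (0.80 ± 0.18 (SE)), CDC25A, the phosphatase that activates CDK2 (0.50 ± 0.14 (SE)), the repressor E2F4 (0.79 ± 0.24 (SE)) and the repressor E2F7 (-0.56 ± 0.15 (SE)). These 5 missed the threshold without any 1 of the libraries labelled TAF1C. RB1, another member of the list, is described above.

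**Figure D4:**
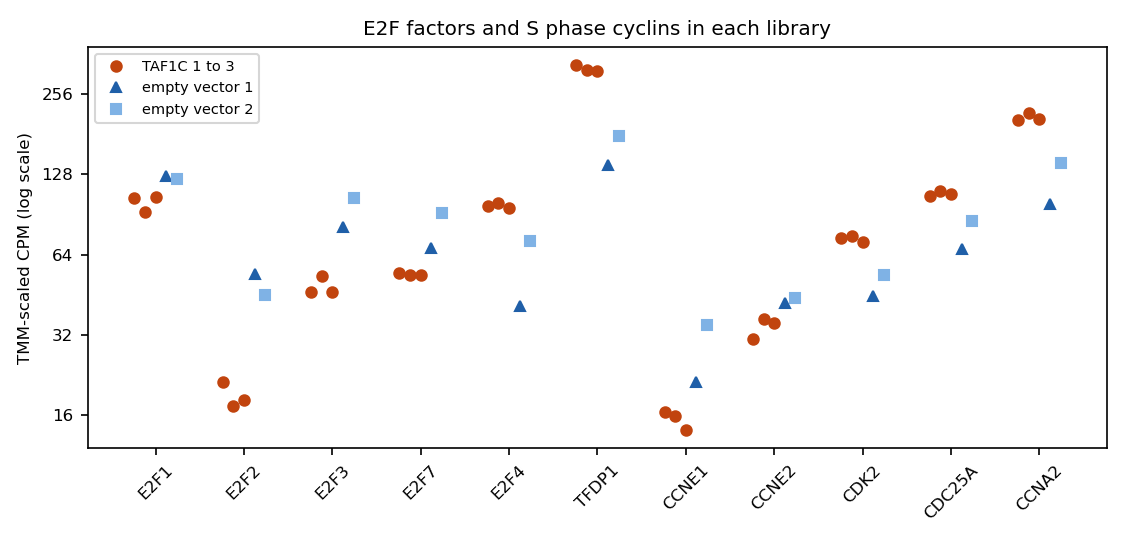
TMM-scaled CPM of E2F factors, TFDP1, cyclins E and A, CDK2 and CDC25A in each library (log scale); circles are the 3 libraries labelled TAF1C, triangles empty vector 1 and squares empty vector 2. The circles lie below the other symbols for E2F1, E2F2, E2F3, E2F7, CCNE1 and CCNE2 and above them for E2F4, TFDP1, CDK2, CDC25A and CCNA2.

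Of all genes tested, 15.9% rose and 22.6% fell, with a median log2 fold change of -0.10. Among 18 further genes of origin licensing and firing 2 rose (11.1%), 0 fell and 16 did not pass (median log2 fold change 0.29). The 2 raised genes were ORC5 and RECQL4. ORC5, another subunit of the origin recognition complex, was at 32.6, 30.7 and 32.1 CPM, against 18.2 and 21.8 CPM. RECQL4, a helicase of origin firing, was at 212, 196 and 214 CPM, against 114 and 146 CPM. Of 31 further genes of the replisome and nucleotide supply, 5 rose and 2 fell (16.1% and 6.45%, median 0.31). POLD3, an accessory subunit of DNA polymerase delta, had 150, 159 and 148 CPM in the libraries labelled TAF1C, against 81.6 and 85.8 CPM (0.86 ± 0.11 (SE), edgeR adjusted p = 0.00289, and at most 0.0310 in the alternative fits). POLD1, its catalytic subunit, had 189, 167 and 184 CPM, against 112 and 108 CPM (0.71 ± 0.11 (SE), edgeR adjusted p = 0.00679). TK1, the thymidine kinase of the salvage pathway, had 199, 184 and 196 CPM, against 94.8 and 126 CPM (0.81 ± 0.16 (SE), edgeR adjusted p = 0.0120). ORC5, RECQL4 and TK1 missed the threshold without any 1 of the libraries labelled TAF1C, and POLD1 missed it without TAF1C 1 or TAF1C 3. Over the 6 lists of 107 related genes together, 17 rose and 8 fell, 15.9% and 7.48%, beside the 15.9% and 22.6% of all genes given above.

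In the 4 lists that follow, the shares stand beside 15.9% raised and 22.6% lowered over all genes tested. Of 12 genes for the turnover of licensing factors 3 rose and 1 fell (25% and 8.33%). CUL4A, the scaffold of the ubiquitin ligase that removes CDT1, was at 197, 201 and 194 CPM in the libraries labelled TAF1C, against 84.6 and 110 CPM (1.02 ± 0.15 (SE), edgeR adjusted p = 0.00483), while USP37, a deubiquitinase of cyclin A, fell (-0.40 ± 0.11 (SE)) and CCNF, cyclin F, rose (0.59 ± 0.16 (SE)). Of 16 genes of replication stress and fork repair 1 rose and 2 fell (6.25% and 12.5%). WEE1, the kinase that restrains CDK1 and CDK2, fell to 60.2, 63.1 and 60.1 CPM, against 94.9 and 129 CPM (-0.87 ± 0.15 (SE), edgeR adjusted p = 0.00852). BARD1, the partner of BRCA1, fell as well (-0.64 ± 0.16 (SE)). Of 10 further genes of replication-coupled chromatin 1 rose and 9 did not pass (10.0% raised). It was the histone chaperone ASF1B (0.59 ± 0.16 (SE)). Of 20 genes of G2 and mitosis 8 rose and 12 did not pass (40% raised, median log2 fold change 0.44). AURKA, a mitotic kinase, was at 202, 212 and 194 CPM, against 85.8 and 117 CPM. CDC20, which activates the anaphase ligase, was at 232, 228 and 238 CPM, against 101 and 145 CPM, and CCNB1, cyclin B1, at 231, 235 and 246 CPM, against 107 and 163 CPM. Empty vector 1 was below empty vector 2 for all 20 of these genes. Without any 1 of the libraries labelled TAF1C, USP37, CCNF, BARD1, ASF1B, CDC20 and CCNB1 missed the threshold, and WEE1 missed it without TAF1C 1 or TAF1C 3. CUL4A passed in each of these fits, and so did AURKA, alone among the 8 raised genes of G2 and mitosis.

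**Figure D5:**
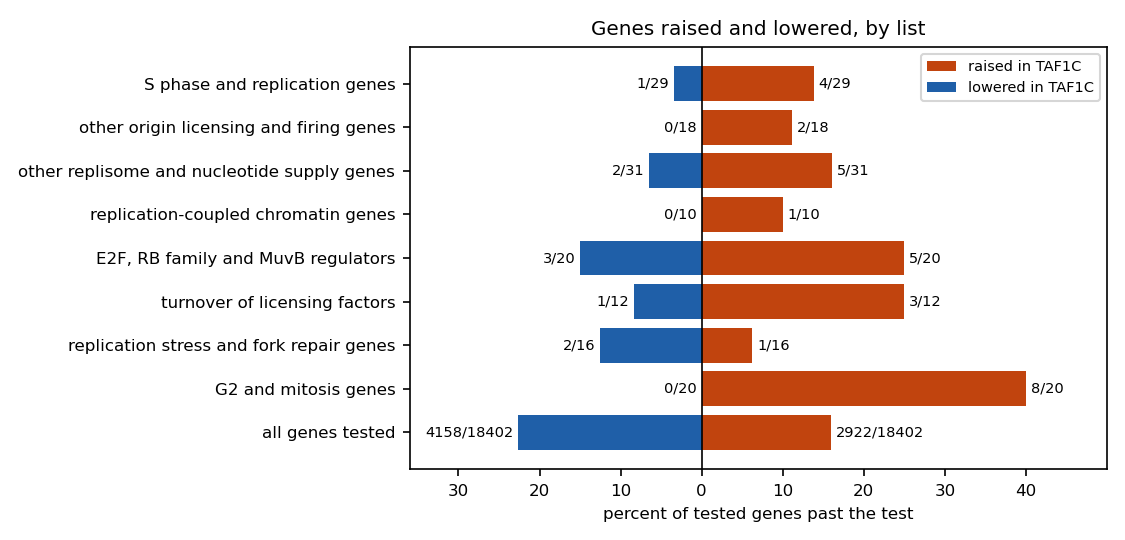
Percent of the tested genes of each list that rose (right of 0) or fell (left of 0) in the libraries labelled TAF1C at an edgeR adjusted p under 0.05, with counts; the bottom bar holds all 18402 genes tested. The 29 S phase genes have 4 raised and 1 lowered with TMM scaling. Their raised share (13.8%) was near that of all genes (15.9%), and their lowered share (3.45%) was below that of all genes (22.6%). With library totals and quantile normalization the share that fell was larger than that of all genes.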

How the data were processed

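Long RNA of cells labelled BEAS-2B was sequenced in 5 libraries. The deposited values are raw counts per gene, 57773 rows with 55771 symbols (rows sharing a symbol were summed). The submitters' processing notes name the build hg19 and the tools Cufflinks 2.2.1, DESeq2, HISAT2, Trimmomatic 0.36 and Bowtie2 2.2.4; the counting tool, its use of strand and the annotation are not given in the sources used here. Genes at 1 CPM or more in at least 2 libraries were tested with edgeR 4.0.16 (quasi-likelihood, TMM, R 4.3.3) with Benjamini-Hochberg adjustment at 0.05, two-sided. The fit was tested on simulated data. Alternatives used library totals, RLE, quantile normalization with limma 3.58.1, other filters, robust edgeR, DESeq2 1.42.0, single libraries left out and a replicate block. The 29 genes and all lists were chosen with earlier results of these data known. All 29 were named, and of each related list the 3 called genes with the smallest adjusted p, except 1 gene that is not reported here. The other E2F regulators named were chosen after their values were seen. The small RNA libraries were not analysed here.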

Additional observations from a re-analysis of the deposited data

How the results depend on the processing

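Only 2 empty vector libraries set the spread of that group, and they differed more than the libraries labelled TAF1C (chi-square per degree of freedom 117.678, against 4.223 to 7.194). Without 1 library, 1 to 17 of the 29 genes rose and 0 to 14 fell, and the numbers for all genes were 1058 to 5967 raised and 1960 to 5665 lowered. For the 107 related genes (17 raised, 8 lowered) they were 3 to 64 and 2 to 31. In the fits without an empty vector library, the single one left was assumed to vary like the other group. The TAF1C log2 fold change was -0.36 to -0.057 in these fits and -0.38 with library totals, where it passed the test (edgeR adjusted p = 0.0316).

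Of the 29 genes, library totals gave 11 lowered, RLE 0 and quantile normalization 7, beside 27.3%, 20.9% and 15.8% of all genes. Without a filter 1 rose and 0 fell, beside 3.61% and 8.55% of all genes. With filterByExpr 2 rose and 0 fell, beside 7.18% and 13.9%. All genes raised numbered 1817 without a filter. Of the related genes, 6 rose and 3 fell both without a filter and with filterByExpr, 26 rose with DESeq2, and 18, 4 and 16 fell with library totals, RLE and quantile normalization. The cause was not tested.

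Library totals gave negative log2 fold changes for CDT1 (-0.14), MCM5 (-0.18), TIPIN (-0.068) and CLSPN (-0.024). Quantile normalization did so for CDT1 (-0.10), MCM5 (-0.26), MCM7 (-0.17), PCNA (-0.019), FEN1 (-0.015), CLSPN (-0.079) and CHAF1A (-0.055). Leaving out 1 library changed the sign of 11 genes, with ranges of -0.26 to 0.24 for MCM5, -0.001 to 0.48 for MCM7, -0.17 to 0.64 for PCNA, -0.025 to 0.96 for RPA2, -0.16 to 0.52 for FEN1, -0.37 to 0.65 for TIPIN, -0.013 to 0.30 for CLSPN, -0.63 to 0.37 for RRM2, -0.42 to 0.078 for TYMS, -0.049 to 0.40 for CHAF1A and -0.036 to 0.54 for SLBP.

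With the replicate number as a block, on the 4 libraries numbered 1 and 2, 0 of the 29 genes rose and 0 fell, beside 6.81% and 13.9% of all genes (CDC45 had an edgeR adjusted p of 0.0534), 4 related genes rose and 3 fell, and 1233 genes rose and 2521 fell in all. The same 4 libraries were also fitted without the block, a fit chosen after seeing the data and equal to the one without TAF1C 3. It gave 1 and 0 of the 29 genes, 3 and 2 of the related genes, and 1076 and 2019 of all genes (5.94% and 11.1%). Deviations of same-numbered libraries correlated at 0.0427 and 0.135 across 18402 genes, and with 2 shared numbers this does not show a pairing.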
